A study of Mus musculus with 7 samples.

Results

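The Hox cluster genes of the mouse were examined in 7 one-colour expression arrays of cardiac mesenchymal progenitors (CMPs) and whole hearts. Members were all genes whose array name is Hox, a cluster letter from a to d and a paralogue number, with antisense names left out. The rule found 44 probes of 39 genes, among 34792 gene names on the array, and 42 probes of 38 genes are described: 10 members of HoxA on chromosome 6, 10 of HoxB on chromosome 11, 9 of HoxC on chromosome 15 and 9 of HoxD on chromosome 2. The rule uses names and no measured value, though it was set with earlier results of these data known.

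The study asked how CMPs recovered from hearts after death compare with those from living animals and with whole heart. CMPs are stromal cells grown out of heart tissue. All 4 CMP samples came from adult C57BL/6 mice, 1 each from atria and ventricles stored for 24 h at 4 °C after death (postmortem atrial, postmortem ventricular) and 1 each from fresh atria and ventricles (living atrial, living ventricular). They were cultured on collagen I in DMEM/F12 with 10% fetal bovine serum and basic fibroblast growth factor at 40 ng/ml, conditions which all 4 share and the hearts do not. The 3 heart samples were a commercial total RNA of adult heart, whose strain and age the labels do not give, and fetal hearts of embryonic day 16.5 from a wild-type C57BL/6 source (WT fetal) and from C57BL/6-Tg(Myh6-EGFP)MG2 (Tg fetal), in which the cardiomyocyte promoter of Myh6 drives a green fluorescent protein. Each sample was 1 array. The labels do not say that samples came from separate animals or cultures, so a p-value here reflects just how these arrays vary, and that variation may be technical.

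Hox genes encode homeodomain transcription factors that lie in clusters in the order of their expression along the body axis: low paralogue numbers act in hindbrain, pharyngeal arches and the anterior mesoderm, high ones in the posterior trunk, limbs and genital tract. In the early embryo, retinoic acid opens the anterior genes in the second heart field, whose cells build the outflow tract and atria. Stromal cells of adult organs often keep a Hox code of their site of origin, held by Polycomb and Trithorax chromatin proteins, and Hox proteins bind DNA together with the PBX, MEIS and PKNOX cofactors of the TALE class.

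Promoters are shown from the RefSeq promoter table (GRCm38.p6) for 5 members whose values differ widely between arrays: Hoxa2, Hoxa5 and Hoxa7 (minus strand) from HoxA, Hoxb4 (plus strand) from HoxB and Hoxd8 (plus strand) from HoxD. The table held 24 entries for 22 of the 38 members described. Each line gives the 250 bases before the start, 5′ to 3′ on the gene's strand, and capitals mark matches, on either strand, to the motifs TGATNNAT (PBX with HOX), TGACAG (MEIS), AGGTCA (a nuclear receptor half-site) and TTTATG (CDX). The places are chr6:52164832-52165081 for Hoxa2, chr6:52204588-52204837 for Hoxa5, chr6:52218574-52218823 for Hoxa7, chr11:96318017-96318266 for Hoxb4 and chr2:74704365-74704614 for Hoxd8.
Hoxa2: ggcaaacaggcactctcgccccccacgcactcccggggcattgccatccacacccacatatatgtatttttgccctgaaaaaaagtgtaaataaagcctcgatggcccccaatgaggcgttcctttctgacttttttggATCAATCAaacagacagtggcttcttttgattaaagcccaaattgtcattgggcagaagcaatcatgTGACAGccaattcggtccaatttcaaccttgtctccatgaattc
Hoxa5: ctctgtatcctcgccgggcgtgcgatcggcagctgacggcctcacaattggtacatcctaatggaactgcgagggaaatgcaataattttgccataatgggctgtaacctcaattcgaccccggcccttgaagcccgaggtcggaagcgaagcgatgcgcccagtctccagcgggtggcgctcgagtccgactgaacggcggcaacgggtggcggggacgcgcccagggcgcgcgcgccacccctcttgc
Hoxa7: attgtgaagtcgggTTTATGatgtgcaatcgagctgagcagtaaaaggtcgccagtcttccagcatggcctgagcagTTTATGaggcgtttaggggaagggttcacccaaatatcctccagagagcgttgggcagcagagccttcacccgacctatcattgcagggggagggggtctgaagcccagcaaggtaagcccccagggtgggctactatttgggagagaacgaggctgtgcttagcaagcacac
Hoxb4: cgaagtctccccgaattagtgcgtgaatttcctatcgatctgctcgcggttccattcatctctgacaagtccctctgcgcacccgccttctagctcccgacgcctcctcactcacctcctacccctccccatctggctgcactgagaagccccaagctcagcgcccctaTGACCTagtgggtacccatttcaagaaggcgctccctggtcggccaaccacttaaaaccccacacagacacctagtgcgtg
Hoxd8: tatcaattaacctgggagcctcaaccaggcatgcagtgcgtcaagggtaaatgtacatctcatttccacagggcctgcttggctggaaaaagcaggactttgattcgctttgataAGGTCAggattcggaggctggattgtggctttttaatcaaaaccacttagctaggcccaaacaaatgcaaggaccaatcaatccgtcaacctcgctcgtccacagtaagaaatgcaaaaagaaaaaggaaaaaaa
The Hoxa2 stretch held the PBX-HOX letters on the opposite strand, 111 to 104 bases before the start, and the MEIS letters at 44 to 39. Hoxa7 held the CDX letters at 236 to 231 and again at 173 to 168, and the half-site letters stood at 81 to 76 (opposite strand) in Hoxb4 and at 135 to 130 in Hoxd8. The Hoxa5 stretch held none of the 4, which says only that these letters are not in this window. Over all 32851 promoters of that length, TGATNNAT was present in 7.68%, TGACAG in 15.9%, AGGTCA in 14% and TTTATG in 10.8%. Among the 24 Hox entries they were in 4, 2, 6 and 5. A match describes letters and not a bound site.

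The probes were 60 bases long. Across the 42 probes, the longest stretch that probes of different members shared was 11 bases, between Hoxc11 and Hoxc12.

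Levels are log2 of the array's processed signal minus the log2 of that array's 75th percentile, so 0 is the 75th percentile of the array. They compare arrays within a gene and do not compare genes with each other, since probes differ in response. A probe counted as detected where the scanner software called it well above background. Where it was not, a difference is given as a bound ("at least N-fold"), taken against the lowest detected signal of those arrays or the probe's own value, whichever was higher. In RNA of many cells, fewer cells of a type and less RNA per cell cannot be told apart.

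All 7 arrays were on 1 slide, with the CMPs in row 1 and the hearts in row 2, so row and sample kind cannot be told apart. Between 46.5% and 52.5% of probes were detected per array. The fibroblast markers were detected in 10 of 10 on every CMP array, with summed levels of 10.95 to 11.29 against 9.34 to 9.52 in hearts. Of 10 cardiomyocyte markers, 2 to 5 were detected on a CMP array against all 10 in each heart, and Myh6 was detected on no CMP array. Both the WT fetal and the postmortem atrial array stood apart from their nearest counterparts for the Hox genes. The WT fetal array also detected 4 of 5 skeletal myogenic markers (Tg fetal 2, adult 1, CMPs 0). It detected 13 of 14 lung markers (Tg fetal 3, adult 4, CMPs 4 to 6) and 12 of 12 liver markers (Tg fetal 5, adult 8, CMPs 3 to 5). The lung and liver lists were chosen after values were seen, and some of their genes were thus detected in other samples too. Surfactant protein gene Sftpc read 3.30 in WT fetal and -5.89, not detected, in Tg fetal, Alb read 1.86 and -6.03, not detected, and Myod1 read -0.65 and -6.13, not detected. On the postmortem atrial array the summed level of 8 endothelial markers was 3.34 against 3.62 to 4.22 on the other CMP arrays, and that of 8 epicardial markers 1.71 against 3.84 to 4.15. The epicardial sum leans on its brightest gene, Tcf21, at 0.81 against 3.62 to 3.84, and the list was mixed. The postmortem atrial array detected 6 of those 8, beside 4 to 6 on the others, and Upk1b, at -3.69, was detected on that array alone among CMPs. Foxa2, from the added lung list, read 0.74 there, -3.36 in living atrial CMPs and was not detected in ventricular CMPs. The part of these markers in the Hox values was not tested, and results that rest on either array are given with and without it.

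Of the 38 members described, 25 were detected on at least 1 array. Detection ran from 5 members in living ventricular CMPs, 6 in postmortem ventricular CMPs, 9 in living atrial CMPs and 11 in postmortem atrial CMPs to 10 in adult heart, 15 in Tg fetal and 22 in WT fetal heart. By this rule the atrial arrays carried more Hox genes than the ventricular arrays of the same state, but the scanner's less strict flag turned that order for the postmortem pair (18 atrial, 20 ventricular) and left the living pair at 15 and 14. The 13 members detected nowhere were Hoxa10, Hoxa11, Hoxb1, Hoxb13, Hoxc10 to Hoxc13, Hoxd1, Hoxd3 and Hoxd11 to Hoxd13, mostly the genes of the posterior trunk, limbs and genital tract. Hoxa7, Hoxb2 and Hoxb4 were the members described that were detected on all 7 arrays, and no further one was detected on all 4 CMP arrays.

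**Figure D1:**
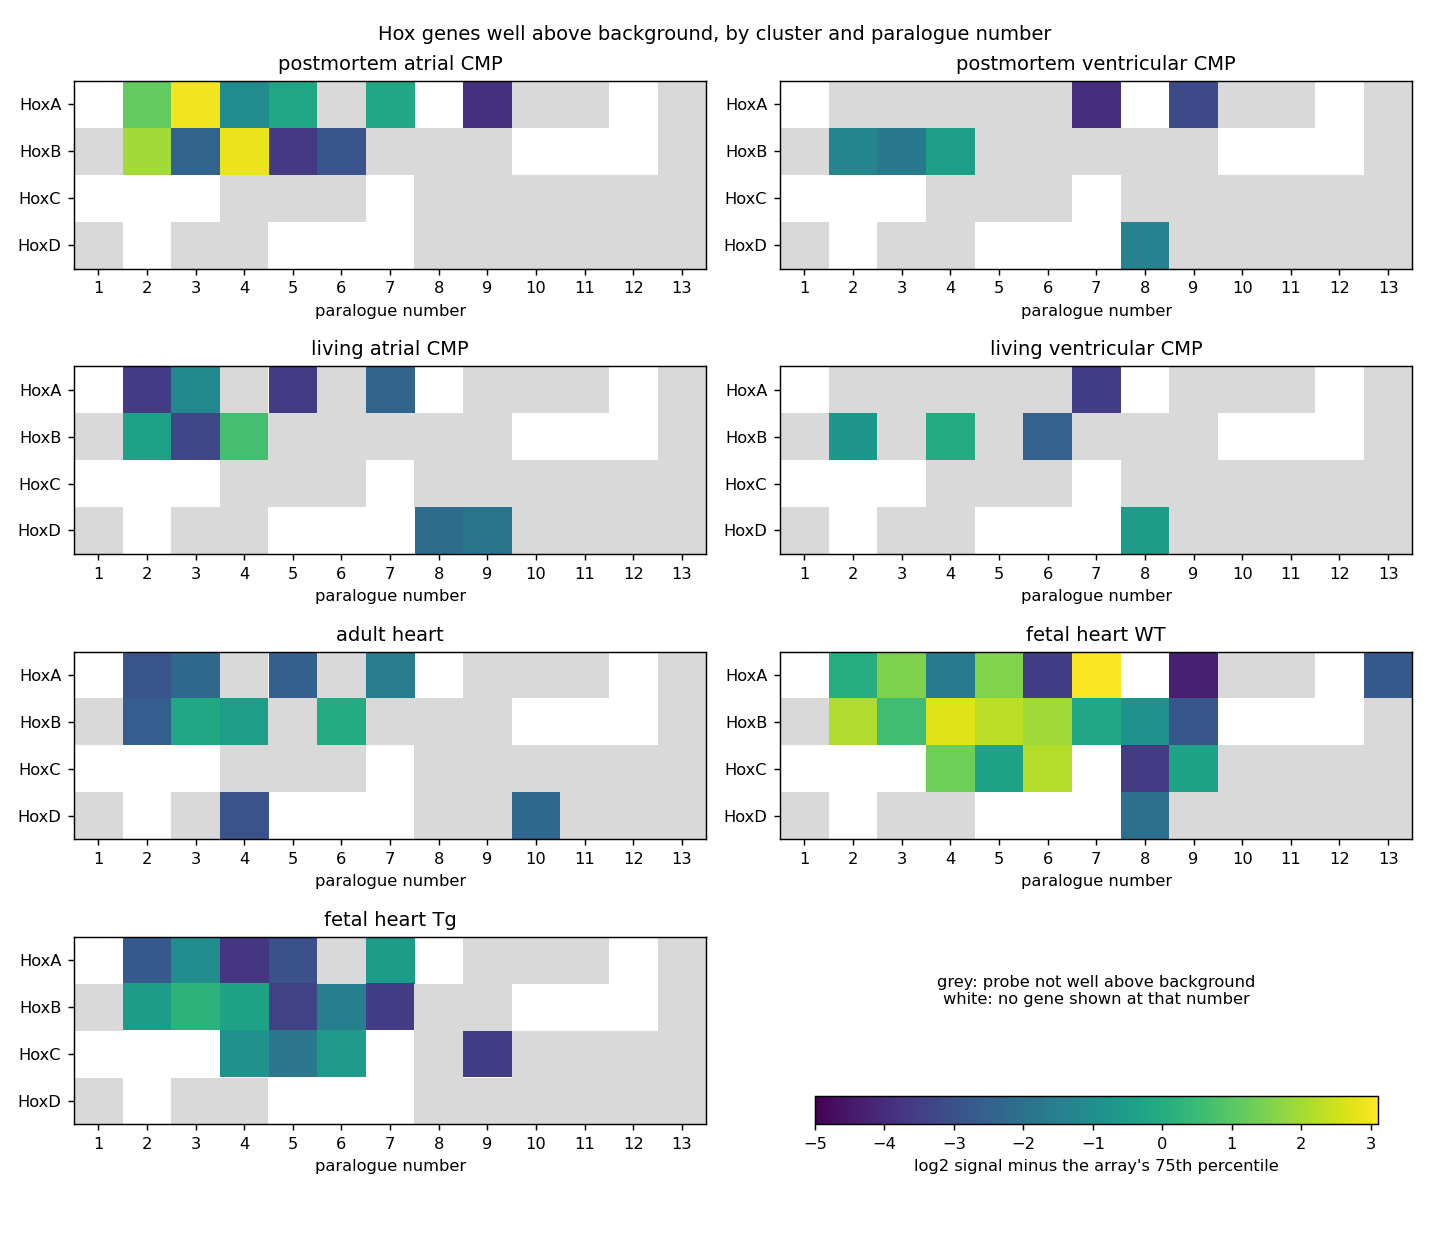
Each of 7 panels is 1 array, with clusters HoxA to HoxD as rows and paralogue numbers 1 to 13 as columns. Colour gives the level (log2 signal minus the array's 75th percentile) where the probe was well above background, grey marks a probe that was not, and white a number at which no gene is shown. Colours are to be compared between arrays within a gene. No HoxC gene was detected on a CMP array, 3 members were detected on all 7 arrays and 13 on none.

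By cluster, HoxA supplied 6, 2, 4 and 1 detected members in the postmortem (atrial, ventricular) and living (atrial, ventricular) CMPs, and HoxB 5, 3, 3 and 3. HoxC supplied 0 of 9 in each CMP array, against 5 in WT fetal, 4 in Tg fetal and 0 in adult heart. HoxD supplied 0, 1, 2 and 1 in the CMPs in the same order, 2 in adult heart, 1 in WT fetal and 0 in Tg fetal heart. By paralogue number, members 1 to 3 gave 4, 2, 4 and 1 of 7 in the CMPs, members 4 to 8 gave 6, 3, 4 and 4 of 15, and members 9 to 13 gave 1, 1, 1 and 0 of 16. The CMP Hox set thus lay almost wholly in paralogues 1 to 8 of HoxA and HoxB, with Hoxd8, Hoxa9 and Hoxd9 as the further members. Hoxd9, a gene of the posterior trunk and limbs, was the member detected in CMPs and in no heart, and only in living atrial CMPs, at -1.84 against -6.22, -4.84 and -3.96 in the other CMPs.

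The anterior genes Hoxb2 and Hoxb4 were present in every CMP culture. Hoxb2, which patterns hindbrain and cranial motor neurons, read 1.97 in postmortem atrial, -1.33 in postmortem ventricular, -0.35 in living atrial and -0.75 in living ventricular CMPs, 2.13 in WT fetal, -0.57 in Tg fetal and -2.59 in adult heart. The postmortem atrial and WT fetal arrays were its highest. Hoxb4, known for expanding blood stem cells, read 2.87, -0.49, 0.67 and -0.02 in the CMPs in that order, 2.71 in WT fetal, -0.31 in Tg fetal and -0.48 in adult heart. Again those same arrays stood above the other 5, which lay between -0.49 and 0.67. Hoxa7, a gene of the thoracic axis, read -0.13, -3.94, -2.39 and -3.54 in the CMPs, 3.07 in WT fetal, -0.52 in Tg fetal and -1.59 in adult heart. Here WT fetal heart alone stood above all others, and the postmortem atrial array was the highest CMP.

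Further trunk genes were detected in some CMP cultures only. Hoxa4, a gene of the cervical axis, read -1.06 in postmortem atrial CMPs and -5.23, -4.35 and -5.24, none detected, in the other CMPs, and -1.64 in WT fetal, -3.70 in Tg fetal and -3.70, not detected, in adult heart. Hoxb5, a gene of lung and enteric nervous system development, read -3.67 in postmortem atrial CMPs and -6.83, -6.38 and -6.29, none detected, in the others, and 2.29 in WT fetal, -3.42 in Tg fetal and -4.13, not detected, in adult heart. Among CMPs, both were detected in the postmortem atrial array alone. Hoxb6, a gene of the lateral plate, read -2.86, -4.44, -4.32 and -2.45 in the CMPs, the middle pair not detected, 1.97 in WT fetal, -1.53 in Tg fetal and -0.02 in adult heart. Hoxd8, a HoxD gene of the trunk, read -6.00 (not detected), -1.42, -2.14 and -0.56 in the CMPs, -2.0 in WT fetal heart, and -4.09 and -3.91, not detected, in Tg fetal and adult heart. All hearts lay above all CMPs for Hoxb6, and for Hoxd8 the postmortem atrial array was the lowest CMP.

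**Figure D2:**
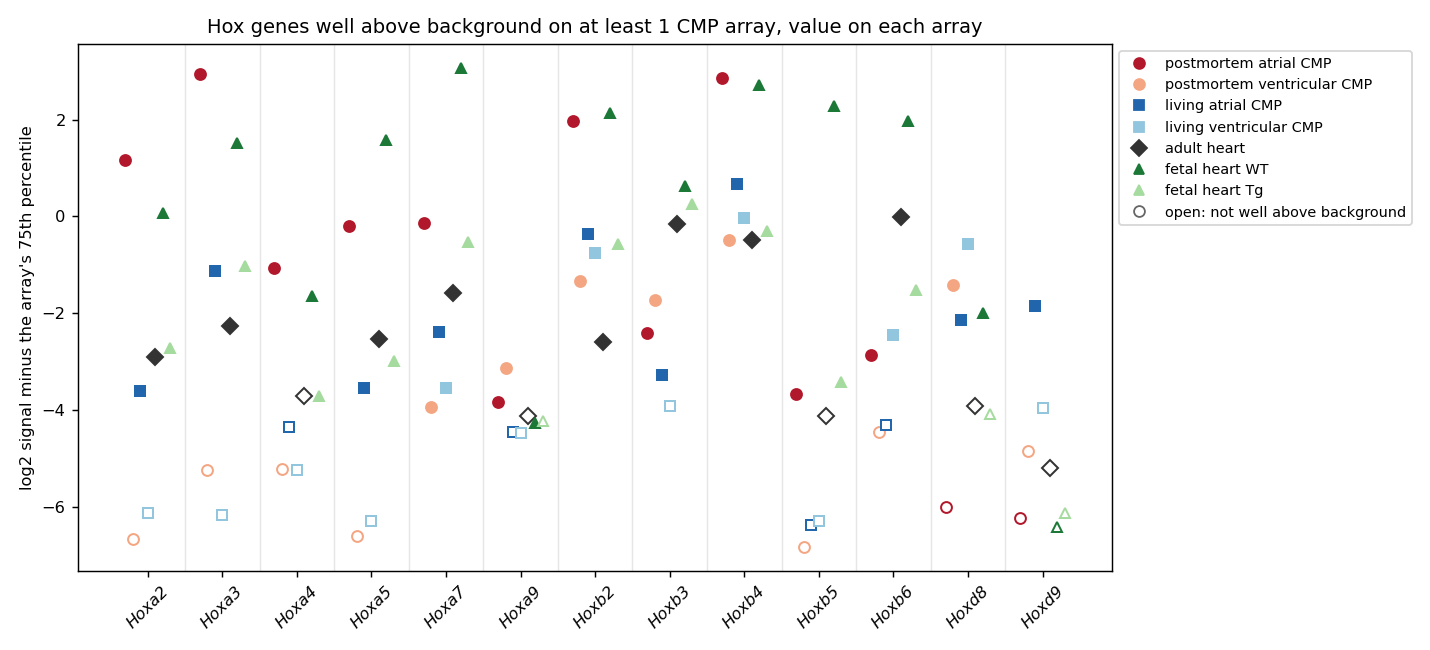
Levels (vertical axis, log2 signal minus the array's 75th percentile) of the 13 Hox genes detected on at least 1 CMP array (horizontal axis), with 1 point an array, coloured by array, and open points where the probe was not well above background. The postmortem atrial and WT fetal arrays are the highest of their kinds for Hoxa2, Hoxa3, Hoxa5, Hoxb2 and Hoxb4.

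The comparison of ventricular with atrial CMPs asked whether cultures kept the difference between their chambers. Hoxa2, Hoxa3 and Hoxa5 of HoxA were detected in both atrial and in neither ventricular CMP array. These are 3 of the 13 members detected on a CMP array, beside 0.348% of all genes so detected. Hoxa3, which patterns the thymus, parathyroid and carotid body (probe at chr6:52119087-52119146, mm9, minus strand), read 2.94 in postmortem atrial and -1.13 in living atrial CMPs against -5.23 and -6.16, not detected, in postmortem and living ventricular CMPs. Hoxa2, a selector gene of the pharyngeal arches, read 1.17 and -3.60 against -6.67 and -6.13, neither of the last detected. Hoxa5, required for lung and tracheal development, read -0.20 and -3.55 against -6.59 and -6.29, again not detected. Their atrial and ventricular arrays did not overlap, which their choice by detection largely sets. Hoxd8 ran the other way, with -1.42 and -0.56 in postmortem and living ventricular CMPs against -6.00, not detected, and -2.14 in atrial CMPs.

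With limma (2 arrays against 2, Benjamini-Hochberg adjustment over all genes), none of the 8 members that could be tested passed, beside 0.0106% of all genes called in this comparison, and 4 had an unadjusted p below 0.05. The chambers did not overlap for 7 of the 8, beside 36.5% of all genes tested. Hoxa3 passed when the spread was modelled over all genes of the array. The ventricular minus atrial difference was -6.60 ± 1.05 for Hoxa3 (SE, adjusted p = 0.204, at least 63.6-fold lower). It was -5.19 ± 1.44 for Hoxa2 (adjusted p = 0.475, at least 15.1-fold lower) and -4.57 ± 1.61 for Hoxa5 (adjusted p = 0.567, at least 9.53-fold lower). For Hoxd8 it was 3.07 ± 0.96 (adjusted p = 0.522). The other members tested, Hoxa7, Hoxb2 and Hoxb4, gave -2.48, -1.85 and -2.03, and Hoxb3 gave 0.02 on its main probe, none called. The other Hoxb3 probe, detected on all 4 CMP arrays, gave -2.53. Hoxa2, Hoxa3, Hoxa5 and the main probe of Hoxb3 entered the test through the atrial side alone, which favours a lower reading in ventricular CMPs. Hoxd8 entered through the ventricular side alone, which favours a higher one.

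The postmortem pair carried most of the size. Hoxa3 was at least 288-fold higher in postmortem atrial than in postmortem ventricular CMPs and at least 14-fold higher in living atrial than in living ventricular CMPs, with 1 array a side and no test. For Hoxa2 the bounds were at least 89.3-fold and at least 2.54-fold, and for Hoxa5 at least 34.7-fold and at least 2.62-fold. In the living pair, Hoxb2 and Hoxb4 differed by only 0.40 and 0.70. Of 10 members detected in the living pair, 5 were at least 2-fold higher in atrial CMPs, where 4.83% of all genes were, and 2 were at least 2-fold lower, where 4.07% were. Those lower were Hoxb6, at least 3.65-fold, and Hoxd8, by 1.57. Of 12 members detected in the postmortem pair, 9 were at least 2-fold higher in atrial CMPs, beside 8.57% of all genes, and 1, Hoxd8, was lower, beside 10.8%. Without 1 CMP array, the only repeat left in the fit was the fetal pair, with 1 residual degree of freedom, and genes of like level shared nearly 1 variance. Such fits called 1 of 9 members without the postmortem atrial array, beside 1.42% of all genes, and 1 of 9 without the postmortem ventricular array, beside 1.26%. They called 9 of 12 without the living atrial array, beside 6.82%, and 7 of 9 without the living ventricular array, beside 6.1%. The atrial side of Hoxa3 without the postmortem atrial array is 1 array, and its difference of -5.03 there is against undetected probes.

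Storage after death was compared across the 2 chambers, postmortem minus living. None of 6 members tested passed, beside 0.105% of all genes, and 1 had an unadjusted p below 0.05. That member was Hoxb3, which acts in hindbrain and pharyngeal glands, at 1.54 ± 0.41 (SE, adjusted p = 0.333). Hoxd8 gave -2.36 ± 0.96 (adjusted p = 0.475), and Hoxa9, a posterior gene known from leukaemia, was at least 1.99-fold higher (adjusted p = 0.574). Hoxb3 and Hoxa9 entered this test through the postmortem side alone and Hoxd8 through the living side alone, which favours the directions they read. Hoxa7, Hoxb2 and Hoxb4 gave 0.93, 0.88 and 0.86, with overlapping arrays. Without the postmortem atrial array, or without the living atrial array, those 3 values became -0.40, -0.57 and -0.47, so their direction rested on the atrial pair. Fits of the kind just described called 1 of 6 members without the postmortem atrial and 1 of 7 without the living atrial array, beside 1.41% and 1.57% of all genes. They called 8 of 12 without the postmortem ventricular and 8 of 10 without the living ventricular array, beside 6.72% and 6.53%.

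The postmortem and living cultures were then set side by side within each chamber. Between the atrial arrays, 9 of 13 detected members were at least 2-fold higher in postmortem CMPs on the measured scale, beside 9.1% of all genes, or 8 with undetected probes at their bound (Hoxb5, at least 1.78-fold, being the other), and 2 were at least 2-fold lower, beside 10.6%. The lower ones were Hoxd8, at least 5.86-fold, and Hoxd9, at least 7.18-fold. The higher ones included Hoxa2 by 4.76, Hoxa3 by 4.07, Hoxa5 by 3.35, Hoxb2 by 2.33, Hoxa7 by 2.25 and Hoxb4 by 2.19. Hoxa4 was at least 9.75-fold higher. Between the ventricular arrays, 2 of 7 detected members were at least 2-fold higher, beside 4.91% of all genes, and 1 was lower, beside 4.98%. These were Hoxa9 (at least 2.56-fold), Hoxb3 (at least 4.62-fold) and, on the lower side, Hoxb6 (at least 3.99-fold). Both higher readings are those of the main probe. The other Hoxb3 probe, detected on both ventricular arrays, ran the other way, at -4.17 in postmortem and -3.05 in living CMPs. The other Hoxa9 probe, detected on neither, read -6.59 and -5.73. Hoxa7, Hoxb2 and Hoxb4 lay between -0.57 and -0.40.

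**Figure D3:**
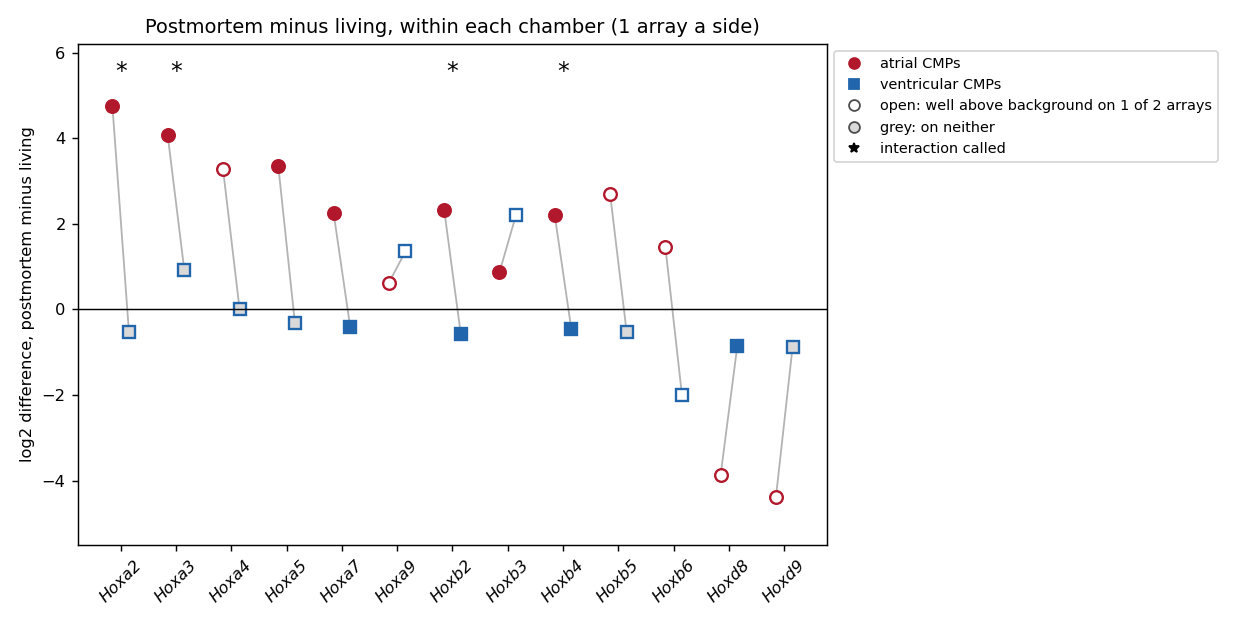
Postmortem minus living difference (vertical axis, log2) of the 13 Hox genes detected on at least 1 CMP array, in atrial CMPs (circles) and ventricular CMPs (squares), 1 array a side. Open points were detected on 1 of the 2 arrays, grey points on neither, and stars mark the 4 genes called in the test by chamber. Hoxa2, Hoxa3, Hoxb2 and Hoxb4 are 2.19 to 4.76 higher in postmortem atrial CMPs and -0.57 to 0.93 in ventricular CMPs.

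The test of that difference itself (ventricular minus atrial difference, limma with Benjamini-Hochberg adjustment) called 4 of 9 members, all lower, beside 2.34% of all genes called in either direction and 0.781% called lower. Hoxa2 gave -5.30 ± 1.16 (SE, adjusted p = 0.00056), from -0.53 in ventricular and 4.76 in atrial CMPs, its ventricular arrays both being below detection. Hoxa3 gave -3.14 ± 0.88 (adjusted p = 0.0178), from 0.93, likewise below detection, and 4.07. Hoxb2 gave -2.90 ± 0.70 (adjusted p = 0.00267) and Hoxb4 gave -2.66 ± 0.62 (adjusted p = 0.00187), both detected on all 4 arrays. Hoxa7 at -2.66 (adjusted p = 0.0542) and Hoxa5 at -3.66 (adjusted p = 0.0608) were not called. Hoxb3, also not called, gave 1.34 on its main probe and -1.18 with the mean of its probes. With 1 array for each chamber and state, the only repeat in this fit was the fetal pair, with 1 residual degree of freedom, and genes of like level shared 1 variance. That pair differs in genotype. WT minus Tg fetal heart was 2.77 for Hoxa2, 2.53 for Hoxa3, 2.70 for Hoxb2 and 3.02 for Hoxb4. The standard errors come from the shared variance and do not carry these gaps. After quantile normalization, or without the variance trend, 0 members passed, scaling to probes detected on all arrays left Hoxa2 alone, and 7 had an unadjusted p below 0.05 as first fitted. Over all genes, quantile normalization called 0 and scaling to those probes 310, beside 452 as first fitted, so the loss was not particular to Hox genes. Among the retinoid enzymes, which make or clear the ligand that induces anterior Hox genes, Cyp26b1 read 4.24 on the postmortem atrial array and 1.84 to 2.25 on the other CMP arrays, and was called in the same test at -2.48. Aldh1a2 was called at -1.97 and Aldh1a3 at 4.29, but neither peaked on that array. Aldh1a2 read 5.28 and 5.22 in postmortem and living atrial CMPs and 4.71 and 6.62 in postmortem and living ventricular CMPs. Aldh1a3 read -2.18, -0.31, -0.40 and -2.82 in the same order. Of 8 endothelial markers 5 were called in this test, all higher, and the part of those cells in the Hox values was not tested.

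In the hearts, the fetal pair differed across nearly the whole set. Of 22 members detected in at least 1 fetal heart, 21 read higher in WT than in Tg fetal heart, 20 of them at least 2-fold on the measured scale, where 7.45% of all genes were, and 17 at least 4-fold, where 3.26% were. The median of the 22 was 2.73, beside -0.12 over all 21865 genes so compared, with 1 array a side and no test. Hoxb5 was furthest apart, by 5.71. Hoxa5 read 1.57 and -2.98, and Hoxb8, a trunk and blood cell gene, read -0.84 and -4.62, not detected. Hoxb3, at 0.62 and 0.25, and Hoxa9, at -4.27 and -4.23, were the members under 2-fold on their main probes. The other Hoxb3 probe read 0.09 in WT and -4.05, not detected, in Tg fetal heart, so Hoxb3 was an exception on its main probe only. Hoxa6, Hoxa13, Hoxb8, Hoxb9 and Hoxc8 were detected in WT fetal heart alone, Hoxa13 on its main probe only. The other Hoxa13 probe was detected in neither fetal heart and ran the other way, at -6.69 in WT and -4.16 in Tg. The same array held the skeletal myogenic, lung and liver markers given above, and their part was not tested.

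**Figure D4:**
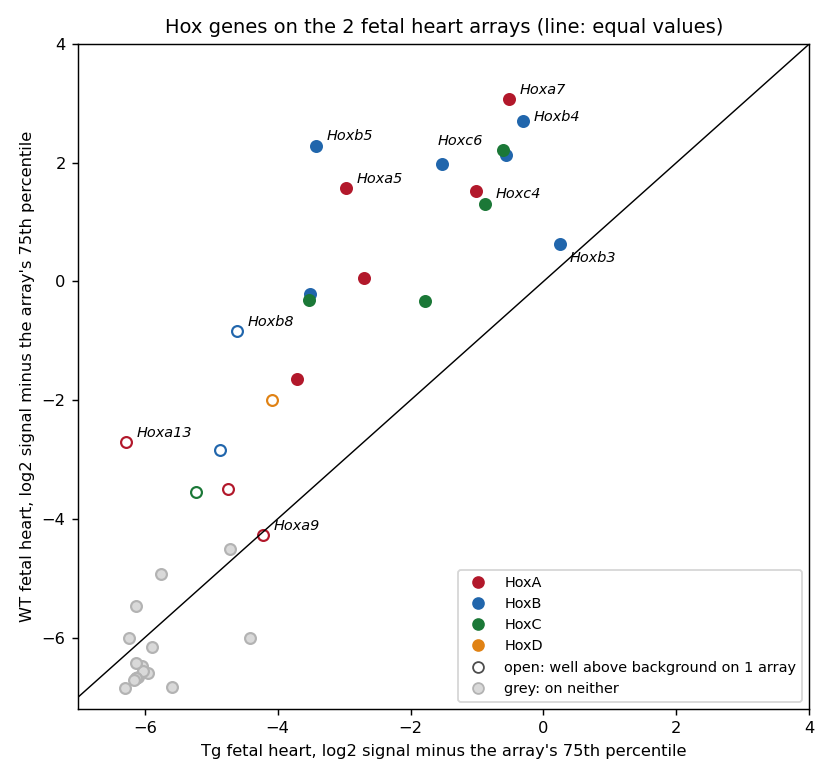
Level of the 38 Hox genes described in WT fetal heart (vertical axis) against Tg fetal heart (horizontal axis), both as log2 signal minus the array's 75th percentile, coloured by cluster, with the line of equal levels. Open points were detected on 1 of the 2 arrays and grey points on neither. Each gene is shown by its main probe. Of the 22 detected members 21 lie above that line, and Hoxb3 and Hoxa9 are the closest to it.

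CMPs were set against the fetal hearts (4 arrays against 2) to see how far cultured progenitors keep the Hox genes of the developing organ. In all, 9 genes of HoxA, HoxB and HoxC fell below fetal heart, foremost Hoxc4, Hoxc6 and Hoxc5, and none rose. Hoxc6, a gene of the thoracic and forelimb level, read 2.21 in WT and -0.61 in Tg fetal heart, -4.59 in adult heart and -6.41, -5.29, -6.33 and -5.15 in the postmortem (atrial, ventricular) and living (atrial, ventricular) CMPs. Hoxc4, of the cervical level, read 1.31 and -0.88 in WT and Tg fetal heart, -5.72 in adult heart and -6.42, -6.80, -6.34 and -6.26 in the CMPs. Hoxc5 read -0.34 and -1.79 in the fetal hearts, -5.43 in adult heart and -6.19, -6.57, -6.13 and -6.06 in the CMPs. No CMP array and no adult heart array detected any of the 3, and the CMP and fetal groups did not overlap. Hoxb7 and Hoxc9, both of the thoracic axis, followed the same pattern, at -0.20 and -3.52 (Hoxb7) and -0.32 and -3.52 (Hoxc9) in WT and Tg fetal heart, with values from -6.50 to -5.98 and from -6.39 to -5.89 in CMPs and of -5.19 and -5.31 in adult heart, none of these detected. The anterior genes detected in every CMP culture were not called: Hoxb2 and Hoxb4 gave -0.90 and -0.45, with overlapping arrays and adjusted p of 0.458 and 0.73 (limma).

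Of 15 members tested, 9 were called lower and 0 higher, a share of 60% beside 47.8% of all genes called, 22.9% higher and 24.9% lower. Only Hoxa7, Hoxb2 and Hoxb4 were detected on all CMP arrays. The other 12 entered through the fetal side, which favours a lower reading in CMPs, so the count is a description. The CMP minus fetal difference was -6.67 ± 0.74 for Hoxc4 (SE, adjusted p = 0.00145, at least 33.7-fold lower). It was -6.60 ± 0.83 for Hoxc6 (adjusted p = 0.0021, at least 50.3-fold lower) and -5.18 ± 0.63 for Hoxc5 (adjusted p = 0.0019, at least 13.9-fold lower). Hoxb7 and Hoxc9 were at least 7.99-fold and at least 7.66-fold lower (-4.31 ± 1.01 and -4.14 ± 0.98, adjusted p = 0.0176 and 0.0183). Hoxb5 at -5.22, Hoxa7 at -3.77 and Hoxb6 at -3.74 were called with adjusted p of 0.046, 0.0334 and 0.041. After quantile normalization these 3 did not pass (0.0874, 0.0672 and 0.0825), nor did they without the variance trend. For Hoxa7 the postmortem atrial array, at -0.13, lay above Tg fetal heart at -0.52, so the groups overlapped. Hoxa3 at -2.65 (adjusted p = 0.0583), Hoxa5 at -3.46 (adjusted p = 0.0925), Hoxa2 at -2.48 and Hoxa4 at -1.30 did not pass.

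Without the WT fetal array, 4 calls were left, all lower: Hoxc4 at -5.57 (adjusted p = 0.0112), Hoxc6 at -5.19 (0.00964), Hoxc5 at -4.45 (0.0162) and Hoxb3 at -3.08 (0.0182). Hoxb7 at -2.65 (0.0543) and Hoxc9 at -2.54 (0.058) no longer passed, nor did Hoxa7 (-1.98), Hoxb5 (-2.37) and Hoxb6 (-1.99). Hoxb2 then stood at 0.45 and Hoxb4 at 1.06, neither called. The Hoxb3 value is that of its main probe, and its other probe, given below, did not keep that direction. That fit called 38.2% of all genes. Without the Tg fetal array 14 of 22 members were called, beside 35.5% of all genes. Without the postmortem atrial array all 16 members tested were called, beside 44.7% of all genes, with Hoxd8 higher, at 1.26. Hoxb2 and Hoxb4 were then among the lower calls, at -1.62 (adjusted p = 0.000314) and -1.11 (adjusted p = 0.0082), and both were called without the living ventricular array too. The spread in these last fits came from the fetal pair alone.

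**Figure D5:**
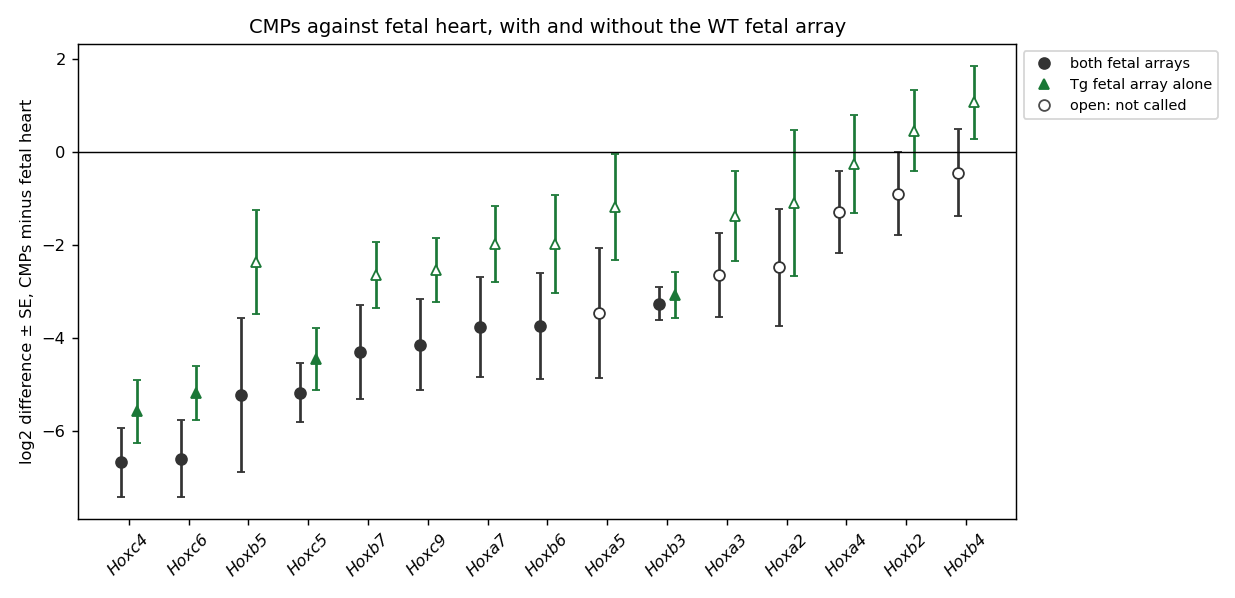
CMP minus fetal heart difference (log2) of each tested Hox gene with its standard error, with both fetal arrays (circles) and with the Tg fetal array alone (triangles), filled where called. Hoxc4, Hoxc5, Hoxc6 and Hoxb3 keep a called difference in both fits (Hoxb3 on its main probe, not with the mean of probes), while Hoxb2 and Hoxb4 pass from below to above 0.

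Hoxb3 depended on the probe. The main probe read -2.40, -1.72, -3.27 and -3.92 (not detected) in the postmortem (atrial, ventricular) and living (atrial, ventricular) CMPs, and -0.15 in adult, 0.62 in WT fetal and 0.25 in Tg fetal heart. The groups did not overlap, and CMPs fell by 3.27 against fetal heart (SE 0.35, adjusted p = 0.00132) and by 2.68 against adult heart (SE 0.46, adjusted p = 0.0064). The other probe, at chr11:96209002-96209061, read 0.21, -4.17, -2.36 and -3.05 in the CMPs, -5.67 (not detected) in adult, 0.09 in WT fetal and -4.05 (not detected) in Tg fetal heart. On that probe the differences were -0.36 against fetal and 3.33 against adult heart, so no direction of Hoxb3 against adult heart holds for both. Nor does a direction against Tg fetal heart alone, since every CMP array but the postmortem ventricular one lay above it on that probe. With the mean of its probes Hoxb3 was not called against either kind of heart.

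Against the single adult heart array, 3 of 10 members tested were called, 0 higher and 3 lower, a share of 30% beside 48.6% of all genes called, 24.6% higher and 24% lower. Only Hoxa7, Hoxb2 and Hoxb4 were detected on all CMP arrays. The other members tested, all 3 calls and Hoxb6 among them, entered through the adult side alone. That side is 1 array, and such entry favours a lower reading in CMPs. Hoxd10, a limb and lumbar gene that read -2.22 in adult heart and was detected on no other array, was at least 6.21-fold lower in CMPs (-3.98 ± 0.95, adjusted p = 0.0195). Hoxd4, of hindbrain and cervical vertebrae, read -2.92 in adult heart alone and was at least 3.66-fold lower (-2.79 ± 0.81, adjusted p = 0.0348), a call lost with normexp background correction (-0.89, adjusted p = 0.0619). Hoxb3 was the other lower call. Hoxb2 stood 2.47 higher with no overlap (adjusted p = 0.13) and Hoxb6 3.5 lower with none (-3.5, adjusted p = 0.0991). Without the postmortem atrial array, 9 of 11 members tested were called, beside 46.5% of all genes. Without the postmortem ventricular, living atrial or living ventricular array 5, 5 and 8 of 10 were, beside 46.7%, 46.8% and 46.4%.

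Between the hearts, adult minus fetal, 4 of 17 members tested were called, a share of 23.5% beside 34.7% of all genes called, 17.4% lower and 17.3% higher. Both this comparison and that of CMPs with fetal heart use the same fetal arrays, and 4 HoxC genes are again not detected on the other side. Each of the 4 members called entered the test only through the side on which it read higher, which favours the direction called. Hoxc4 was lower in adult heart by at least 21.5-fold (-5.93 ± 1.05, adjusted p = 0.0118), Hoxc6 by at least 32.2-fold (-5.39 ± 1.17, adjusted p = 0.021) and Hoxc5 by at least 8.87-fold (-4.36 ± 0.89, adjusted p = 0.0177). Hoxd10 was higher by at least 8.63-fold (3.98 ± 1.04, adjusted p = 0.0352). Without the WT fetal array, Hoxc4 at -4.84 (adjusted p = 0.0339) and Hoxc6 at -3.98 (adjusted p = 0.0353) were the calls left, beside 24.7% of all genes. Without the Tg fetal array 10 of 24 members were called, beside 29.5% of all genes, and without 1 CMP array 11 to 13 of 17, beside 39.4% to 39.6%. Without the variance trend Hoxc6 was not called.

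The TALE list held Pbx, Meis and Pknox genes, the cofactors named above, together with Tgif1 and Tgif2, which are not among those cofactors. Its genes were widely present: all 10 described were detected on every CMP and fetal array and 8 in adult heart. Counts for this and the next gene lists stand beside these shares of all genes called: 22.9% higher and 24.9% lower against fetal heart, 24.6% higher and 24% lower against adult heart, 17.3% higher and 17.4% lower between hearts, and 2.34% by chamber. Of 10 TALE genes tested against fetal heart, Meis3, Pknox2 (2.63) and Tgif1 were higher in CMPs and Meis1, Pbx2 (-1.82), Pbx3 and Tgif2 (-2.33) lower, with a median of -0.43 beside -0.01 over all genes. Against adult heart 8 were higher and 0 lower (Meis2, Meis3, Pbx2, Pbx3, Pbx4, Pknox2, Tgif1 and Tgif2, Tgif1 by 2.95), with a median of 1.77 beside -0.00. Adult heart was lower than fetal heart for Meis1, Meis2, Pbx2, Pbx3, Pbx4, Tgif1 and Tgif2. No TALE gene was called between chambers, between states or in the test by chamber, where the furthest apart were Meis2 (-0.96) and Meis1 (-0.57), Tgif2 (0.81) and Meis3 (-0.54), and Tgif2 (-2.23) and Meis2 (-1.0).

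Polycomb subunits keep silent Hox genes closed. Of 21 tested against fetal heart, Ezh1 (1.54), Phc3 and Phf1 were higher and Cbx2, Ezh2 (-2.02), Jarid2 (-2.54), Mtf2, Rbbp4, Rbbp7, Rnf2 and Suz12 lower, 11 calls beside 47.8% of all genes. Against adult heart, Cbx6, Ezh2 (1.42), Pcgf2 (3.04), Phc2, Phc3, Rbbp4 and Rnf2 were higher and Jarid2 lower. Adult minus fetal heart called Ezh1 and Phf1 higher and Cbx2, Ezh2 (-3.44), Jarid2, Mtf2, Pcgf2, Phc1, Phc2, Rbbp4, Rnf2 and Suz12 lower. Of 12 Trithorax-group and Kdm6 demethylase genes, which counter Polycomb, Ash1l and Mll5 were higher than in fetal heart and Ash2l, Dpy30, Kdm6b, Psip1 and Wdr5 lower. Ash1l, Men1, Mll5 and Psip1 were higher than in adult heart and Dpy30 lower, and adult heart was below fetal heart for Ash2l, Kdm6a, Kdm6b, Men1 and Psip1. Neither list had a call between chambers, between states or in the test by chamber. The furthest apart were Cbx6 (-0.75), Cbx7 (-0.51), Mll1 (0.80) and Mll2 (0.62) between chambers and Phf19 (1.84), Mtf2 (-0.78), Mll2 (-0.77) and Ash1l (-0.44) between states. By chamber they were Cbx7 (-1.65), Phf19 (-1.33), Mll1 (-3.14) and Mll3 (1.00). The medians of the CMP minus fetal difference were -0.13 and -0.42.

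Of 16 upstream inputs of Hox genes described, 11 were tested against fetal heart, and Cdx1, Cdx2 and Cdx4 were not detected on any array. Aldh1a1 (6.30), Aldh1a2 (2.24), Egr2, Rarg and Rxra were higher in CMPs and Rara and Rarb (-2.84) lower, with a median of 0.58. Against adult heart Aldh1a1, Aldh1a2, Gdf11 and Rara were higher and Rarb lower, and adult minus fetal heart called Aldh1a1 and Egr2 higher and Gdf11 and Rara lower. None was called between chambers, with Cyp26b1 (-0.83) and Rarb (0.66) furthest apart, or between states, with Rarb (-1.85) and Cyp26b1 (1.16). Of 13 tested genes that flank the clusters, Skap2, beside HoxA, was higher in CMPs than in fetal (1.48) and adult heart (1.72). Cbx1, Cbx5, Hnrnpa1 (-2.12), Mtx2 and Smug1 were lower than in fetal heart, and Hibadh, Mtx2 and Smug1 lower than in adult heart. Adult minus fetal heart called Calcoco1 and Hibadh higher and Cbx1, Cbx5 and Hnrnpa1 lower. None was called among CMPs, the furthest apart being Skap1 (1.31) and Calcoco1 (-0.62) between chambers, Skap1 (2.21) and Hnrnpa1 (0.66) between states, and Skap1 (-2.71) and Skap2 (-0.54) by chamber. The antisense transcript Hoxa11as was detected in both atrial CMP arrays (-1.96 and -3.5) and WT fetal heart (-3.97) and in no ventricular one, and its chamber difference of -1.39 was not called.

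Other positional homeobox and T-box genes were compared as a group of 33. Against fetal heart, 30 could be tested: Emx2, Msx1, Prrx1 and Six2 were higher in CMPs and Alx1, Irx1 to Irx6, Isl1, Lhx2, Meox1, Pitx1, Tbx3 and Tbx5 lower, with a median of -1.72. Against adult heart Foxf1a, Prrx1, Prrx2, Shox2, Six2 and Tbx18 were higher and Irx1 to Irx4, Meox1, Meox2, Tbx3 and Tbx5 lower. Adult minus fetal heart called Prrx1 higher and Alx1, Foxf1a, Irx6, Lhx2, Msx2, Pitx1, Prrx2, Six2 and Tbx18 lower. In the test by chamber Meox1, Meox2, Tbx3, Tbx5 and Tbx20 were called higher and Irx1, Irx2, Irx3, Osr1 and Prrx2 lower, of 26 tested, on the same 4 CMP arrays as the Hox calls. None was called between chambers, with Irx1 (-5.13) and Meox2 (4.94) furthest apart, or between states, with Irx2 (2.50) and Meox1 (-2.05).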

How the data were processed

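The 7 samples were measured by Cy3 label of 250 ng total RNA on 1-colour Agilent arrays. Per the file headers, the authors' deposited scanner files hold probe intensity from Agilent Feature Extraction 10.7.3.1, while the submitters' processing notes name version 9.5.3; the processed signal is already background-corrected. The authors' deposited series table holds log2 values whose scaling is not stated. It equalled log2 of the processed signal minus a constant for 99.4% to 99.5% of probes within 0.001 on each array, so its scale is log2 with no centring of genes, and what set its constants stays unknown. The medians of its columns came to -4.25 and -4.17 on the postmortem CMP arrays (atrial, ventricular), -4.21 and -4.13 on the living ones, -3.60 in adult heart, -4.03 in WT and -3.87 in Tg fetal heart. The number of arrays, and not a read depth, limits the precision.

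From 59305 non-control spots, spots of a probe were averaged (432 probes had more than 1) and 11 probes were left out for outlier flags, with 0 saturated spots. The 75th percentile of each array was then subtracted on the log2 scale. A gene was its probe of highest mean, and it was tested where 1 side or both had that probe detected on each of their arrays. Groups and CMP chamber were fitted with limma 3.58.1 (R 4.3.3; lmFit, eBayes with a trend, 2 residual degrees of freedom) on 24896 genes detected on at least 1 array, two-sided, with Benjamini-Hochberg adjustment over all genes tested and a threshold of 0.05. The difference by chamber added an interaction term. The set of genes in the fit was chosen after call counts of 3 versions were seen, and the other versions are given as alternatives. Steps were tested on simulated data. The Hox members, gene lists and markers were chosen with earlier results of these data known. Levels are given in full for members called in a comparison, or detected on a CMP array and at least 2 log2 units apart among CMPs. From each list the called genes are named, or else the 2 furthest apart. Alternatives changed the background correction, scaling, probe rule, filter, variance model, chamber term, detection rule and arrays. One member, several listed genes and a probe sequence are not reported here, though they stayed in the fit and the adjustment. Probe positions are those of the files (mm9). Exon or untranslated region was not assigned.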

Additional observations from a re-analysis of the deposited data

Results flagged for a closer look

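Hoxb5 on the postmortem atrial array, at -3.67, lay further from the other 3 CMP arrays (-6.83 to -6.29, none detected) than Dixon's criterion allows for 4 samples, the gap being 0.831 of the whole range. Chance flags about 1 in 20 such groups, and the other 3 values are below detection.

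The postmortem minus living difference differed between chambers, ventricular minus atrial, by -5.30 for Hoxa2, -3.14 for Hoxa3, -2.90 for Hoxb2 and -2.66 for Hoxb4 in the interaction test of limma. All 4 share the postmortem atrial array, and each chamber and state is 1 array. The spread came from the fetal pair alone, as 1 variance shared by genes of like level. Hoxa2 and Hoxa3 were detected on neither ventricular array, so their values are not exact. After quantile normalization, or without the variance trend, 0 members passed. Quantile normalization called 0 of all genes in this test too.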

How the results depend on the processing

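Directions and calls were recomputed under each alternative, and those not named here kept their direction, or their count within 1.5 times. With every array left out in turn, the calls ranged from 4 to 16 against fetal heart, 3 to 9 against adult heart, 2 to 13 between hearts, 0 to 9 between chambers and 0 to 8 between states; without a CMP array, genes of like level shared nearly 1 variance. The stricter filter, which tests fewer genes, left 1 call against fetal heart, 0 against adult heart, 0 between hearts and 2 by chamber. With no filter, 5 were called against adult heart. By chamber, quantile normalization and the fit without a trend gave 0, the 75th percentile of probes detected on all arrays 1 and the robust prior 2. Over all genes, quantile normalization gave 0 and that percentile 310, beside 452 as first fitted. The cause was not tested. The fit over all genes, chosen after the data were seen, gave 10, 3, 5, 1 (Hoxa3), 0 and 4 calls for fetal, adult, hearts, chambers, states and by chamber, and over tested genes 9, 3, 4, 0, 0 and 5. With that 75th percentile the median of all genes was -0.18 against fetal and -0.16 against adult heart. Hoxa3 against adult heart read 0.55 with normexp and 0.15 with quantile normalization. Hoxb3 between chambers read -0.011 with quantile normalization, -0.0067 with that percentile and -1.26 with the mean of probes, which gave 0.33 against adult heart and -1.18 by chamber, and -0.071 for Hoxa9 by chamber. With arrays left out, the ranges against fetal heart were -2.25 to 0.45 for Hoxb2 and -1.95 to 1.06 for Hoxb4. Against adult heart they were -2.22 to 0.43 for Hoxa2 and -0.92 to 0.65 for Hoxa3. Between hearts they were -2.06 to 0.0039 for Hoxa4, -4.10 to 0.45 for Hoxa5 and -1.99 to 1.51 for Hoxb6. Between states they were -0.40 to 2.25 for Hoxa7, -0.57 to 2.33 for Hoxb2 and -0.47 to 2.19 for Hoxb4, and Hoxb3 between chambers ran from -0.65 to 0.69. With normexp, 44.6% of the genes called between chambers and 27.1% of those called between states were higher, against 0% and 5% as first fitted. Detection by the scanner's less strict flag gave 18, 20, 15, 14, 21 and 26 members for the postmortem atrial and ventricular, living atrial and ventricular, adult and Tg fetal arrays. The slide block was not run because all arrays share 1 slide and scan time. No paired analysis was possible because the labels give no replicate numbers.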
